A study of Arabidopsis thaliana with 12 samples.

Results

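In these RNA-seq libraries of Arabidopsis thaliana, 47 loci had almost no reads in wild-type plants and were read in every library of 3 mutant genotypes. They were chosen from 33023 loci that the deposited annotation does not type as transposable element genes (36917 loci in all). A locus was taken where the mean normalised read count of the wild-type libraries was below 1 and the value in each of the 9 mutant libraries was at least 10. The difference between the mutants and wild type was thus used to pick the loci, and it is given below as a description, without a test.

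The groups were the double mutant djc31 djc62, the single mutant djc62 (line SALK_050913), the single mutant djc31 (line SALK_034886) and the wild type Col-0, with 3 libraries each. SALK lines carry a T-DNA, a piece of bacterial DNA that inserts into the plant genome. The labels name 1 line per single mutant and no line or cross for the double mutant. Whole plants had grown on soil without a named stress until they had 4 leaves, under days of 16 h light and 8 h dark, and all groups shared these conditions. DJC31 and DJC62 are co-chaperones with a J domain, the part that calls on HSP70 chaperones, and with tetratricopeptide repeats; the series concerns their part in abiotic stress. In bulk plants, fewer cells of a type and less RNA per cell cannot be told apart.

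The targeted genes were checked first. DJC31 averaged 47.5 ± 7.79 in the double mutant, 878.7 ± 63.9 in djc62, 115 ± 30.8 in djc31 and 726.7 ± 49.3 in wild type (normalised read counts, SD, n = 3). DJC62 averaged 75.7 ± 17.6 in the double mutant, 161.1 ± 50 in djc62, 412.8 ± 93.5 in djc31 and 516.2 ± 76.1 in wild type. Each gene was lower in its own single mutant and in the double mutant (DJC31, limma, adjusted p = 1.94e-08 and 1.25e-10; DJC62, 5.26e-05 and 3.15e-07), as the labels have it. DJC31 lay 1358 loci from the nearest of the 47 loci, and chromosome 2, which carries DJC62, held none of them. Libraries held 13.601 to 31.085 M reads in loci, and 20704 to 23065 loci had a read in a library.

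A plant gene can be silent because DNA methylation and histone marks keep its chromatin closed, a state that RNA-directed DNA methylation and the polycomb proteins help to set and that can persist through generations. Many genes that differ in this way, or in presence, between Arabidopsis strains belong to fast-changing families such as immune receptors, F-box proteins and lectin kinases, often in tandem arrays. A read count does not tell these states apart: a locus that is not transcribed, one whose sequence is missing and one whose reads could not be placed all give 0 reads. Which of these held in the wild-type plants was not tested.

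Wild type was at or near the limit of detection at every locus. Of the 47 loci, 31 had no read in any wild-type library and 16 had between 1 and 3 reads over the 3 libraries. Wild type had 25 reads of these loci in all, against 100028 reads in the mutants. The summed normalised read count of the 47 loci was 10270, 10438 and 10464 in the double mutant, 10903, 10274 and 9884.5 in djc62, 11399, 10003 and 11919 in djc31, and 8.131, 10.444 and 4.6378 in wild type. The 9 mutant sums lay close together and the wild-type sums lay far below all of them. A total of 0 reads in the 79.93 M wild-type reads still allows up to 3 reads, or 0.0375 CPM (reads scaled to a fixed library total), by counting error alone. Against that floor the 31 loci without wild-type reads were at least 26.4-fold to 2130-fold higher in the double mutant (median of the bounds 171), at least 18.2-fold to 2280-fold higher in djc62 (median 116) and at least 17.4-fold to 1550-fold higher in djc31 (median 144).

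**Figure D1:**
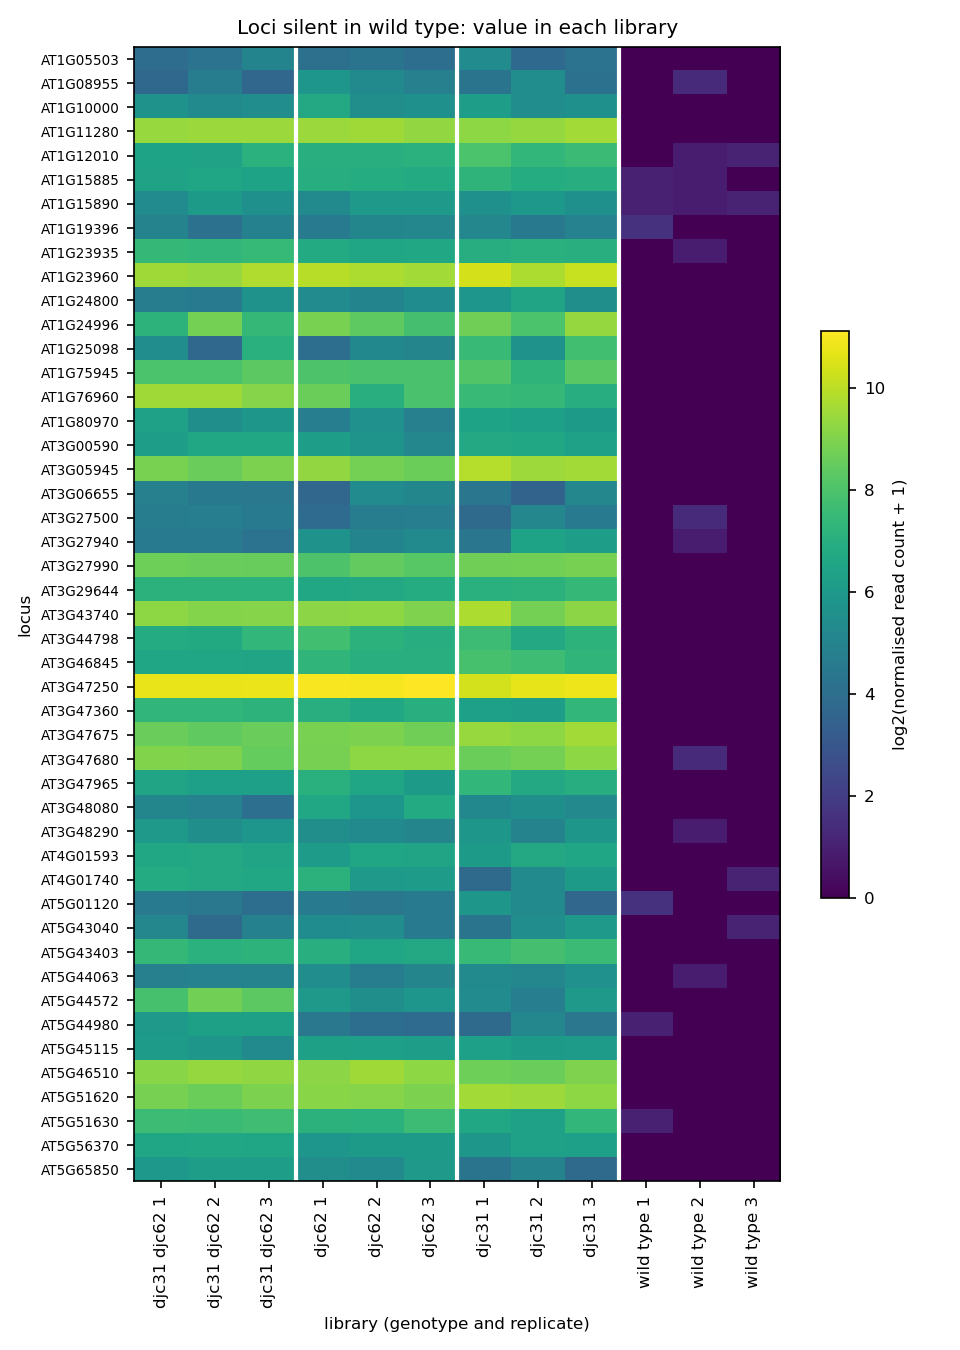
Value of each of the 47 loci (rows) in each library (columns, 3 per genotype), as log2(normalised read count + 1) by colour. The 9 mutant columns are filled in every row, and the 3 wild-type columns are dark apart from 16 loci with at most 3 reads each over these columns.

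The loci ranged widely in read count and less between mutant libraries, where the rule asked for at least 10 in each. Their mean over the 9 mutant libraries ran from 20.58 at AT1G05503 to 1805 at AT3G47250, with a median of 102.2, and 24 loci averaged at least 100. These are read counts that are not divided by gene length, so they do not rank the genes by level. The ratio of the highest to the lowest mutant library had a median of 2.49 over the loci, from 1.26 at AT1G11280 to 16.9 at AT1G25098. By type, the deposited table gives 32 of them as protein coding and 6 as other RNA, and gives no type for 9. RefSeq (assembly TAIR10.1), in which all 47 were found, lists 4 of these 9 as protein coding, 2 as long non-coding RNA and 3 as miscellaneous RNA.

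Other loci stood close to both limits of the rule. Just inside the wild-type limit stood AT1G15890 with a wild-type mean of 0.993, and just outside stood AT3G53650 with 1.31, AT5G46490 with 1.33 and AT3G47290 with 1.65. The last 2 of these averaged 559.3 and 1236 over the mutant libraries. Just inside the mutant limit stood AT3G06655, AT1G08955 and AT5G01120, whose lowest mutant values were 10.7, 11.7 and 11.8. Just outside stood AT5G42090 with 8.93, and AT1G12160 and AT3G07675 with 8.59 each.

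Applied the other way round, the rule found fewer loci. It found 15 loci, transposable element genes left out, that were silent in the 9 mutant libraries and had at least 10 in each wild-type library. One of them, HDA10 (AT3G44660, named as a histone deacetylase), averaged 1.16 ± 2 in the double mutant, 0.257 ± 0.445 in djc62, 0.282 ± 0.488 in djc31 and 50.6 ± 11.3 in wild type (SD, n = 3). No locus was silent in 1 mutant genotype alone and read in the other 3 genotypes. The rule for pairs of genotypes gave 87 loci read in the double mutant and silent in wild type, 64 for djc62 and 55 for djc31. Between mutants it gave 31 loci read in the double mutant and silent in djc31, 22 read in the double mutant and silent in djc62, and 1 to 4 for the other 4 pairs. Among transposable element genes 12 met the rule for the 47 loci. The one with the highest counts was AT3G43690, a copia-like retrotransposon, with 1055, 1124 and 978.2 in the double mutant, 636.1, 670.6 and 543.7 in djc62, 601.3, 949.6 and 971.1 in djc31, and 1.016, 0 and 0 in wild type.

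The 47 loci were spread unevenly along the genome, a feature the rule did not use. Chromosome 3 held 17 of them (36.2%, against 20.1% of all ordered loci), chromosome 1 held 16 (34.0%, against 25.6%), chromosome 5 held 12 (25.5%, against 22.4%), chromosome 4 held 2 (4.26%, against 15.5%) and chromosome 2 held 0 (16.5% of ordered loci). The order of loci was taken from RefSeq's TAIR10.1 table. Of the 47, 27 (57.4%) lay within 20 loci of another of the set, against 736 of 19661 other tested loci (3.74%) that lay within 20 loci of one of the set. Within 100 loci these shares were 74.5% and 13.3%. With a gap of at most 100 loci, the set fell into 23 stretches, of which 11 held more than 1 locus and together 35 of the 47. The stretch from AT3G46845 to AT3G48290 held 8 of them over 198 loci, and the stretch from AT5G43040 to AT5G45115 held 6 over 292. Of the 15 loci silent in the mutants, 5 (33.3%) lay within 100 loci of one of the 47. Loci of a stretch share their place and are not independent of each other.

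Immune receptors of the NBS-LRR class, intracellular sensors of pathogens, supplied 3 loci. They made up 3.9% of the 77 tested loci with that annotation, against 0.237% over all 19821 tested loci that are no transposable element genes. Every family given here and below holds a locus of the set, so the family shares are a description and were not tested. They count only loci with at least 10 in at least 3 libraries. By the rule each locus of the set passes this filter through the mutant libraries, which other loci of a family need not do. AT5G46510 (VICTL), named for its likeness to the neighbouring receptor gene VICTR, had 562.3, 663 and 625.9 in the double mutant, 582.5, 734.2 and 598.4 in djc62, 408.8, 382.4 and 496.9 in djc31, and 0 in each wild-type library. The djc31 libraries were the 3 lowest of the mutants. AT5G51630, of the TIR class that carries an interleukin-receptor-like domain, had 195.2, 192 and 208.3 in the double mutant, 138.6, 134.8 and 194.1 in djc62, 98.22, 81.64 and 162.3 in djc31, and 1.016, 0 and 0 in wild type. Its neighbour AT5G51620, an uncharacterised protein of the UPF0172 family, is also in the set, with 452.1, 387.7 and 478.6 in the double mutant, 565, 553.6 and 481.3 in djc62, 771.2, 719.7 and 602.6 in djc31, and 0 in each wild-type library. The neighbours thus ran in opposite order over the mutants, AT5G51630 highest and AT5G51620 lowest in the double mutant by mean.

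The receptor AT1G15890 is of the CC class, which carries a coiled coil, and lies beside AT1G15885, an unknown protein. AT1G15890 had 39.92, 65.48 and 46.86 in the double mutant, 37.28, 62.74 and 60.84 in djc62, 46.46, 60.15 and 47.33 in djc31, and 1.016, 0.803 and 1.159 in wild type. It was the only locus of the set with a read in all 3 wild-type libraries. AT1G15885 had 85.04, 92.27 and 86.18 in the double mutant, 121.2, 116.2 and 111.7 in djc62, 151.3, 118.2 and 119.2 in djc31, and 1.016, 0.803 and 0 in wild type. Its double-mutant libraries were the 3 lowest of the mutants. AT3G48080, a lipase-like alpha/beta-hydrolase, is the direct neighbour of EDS1, which is its named closest match. EDS1 is a protein that immune receptors of the TIR class need for signalling.

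Among receptor-like and kinase genes, AT1G11280 is an S-locus lectin protein kinase, a membrane kinase with a sugar-binding outer part. It had 673.4, 698.7 and 706.2 in the double mutant, 687.3, 736.8 and 631.5 in djc62, 601.3, 653.1 and 758.1 in djc31, and 0 in each wild-type library. It was the steadiest locus of the set, and its mutant groups overlapped. AT3G43740, a leucine-rich repeat protein, had 595.3, 532.8 and 547.2 in the double mutant, 575.5, 603.7 and 499 in djc62, 852.1, 438.3 and 588.2 in djc31, and 0 in each wild-type library. Here the first djc31 library stood above the other 8 mutant libraries.

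Enzymes were few. AT3G47360 (HSD3) is annotated as a putative hydroxysteroid dehydrogenase and had 159.7, 160.7 and 143.1 in the double mutant, 128.1, 100 and 124 in djc62, 75.66, 75.19 and 165.6 in djc31, and 0 in each wild-type library. AT1G12010, annotated as an ACC oxidase, the type of enzyme that makes the hormone ethylene, averaged 101.6 ± 28.7 in the double mutant, 130.2 ± 6.08 in djc62, 199.9 ± 46.1 in djc31 and 0.654 ± 0.594 in wild type (SD, n = 3). AT3G48290 (CYP71A24) was the only cytochrome P450 oxygenase of the set, of 130 tested.

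F-box proteins, which pick the targets of a ubiquitin ligase, supplied 4 loci (2.35% of 170 tested): AT1G24800, AT5G44980, AT5G56370 and AT5G65850. Proteins with the zinc-binding C1 domain supplied 3 (6.38% of 47 tested): AT3G27500, AT4G01740 and AT5G43040. AT3G27500 stayed at or below 34.37 and AT5G43040 at or below 60.85 in every library. AT3G27940 (LBD26), with the DNA-binding LOB domain, had 23.43, 23.07 and 17.57 in the double mutant, 51.26, 31.37 and 38.51 in djc62, 19.91, 85.93 and 71.84 in djc31, and 0, 0.803 and 0 in wild type. Its djc31 libraries overlapped both other mutants, while each djc62 library was above each double-mutant library.

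The locus with the highest read counts, AT3G47250, encodes a protein with the domain of unknown function DUF247. It had 1700, 1729 and 1748 in the double mutant, 2033, 2030 and 2223 in djc62, 1309, 1648 and 1831 in djc31, and 0 in each wild-type library. The djc62 libraries were the 3 highest. AT1G23960, of the DUF626 family, had 743.7, 666.7 and 890.3 in the double mutant, 973.9, 863.1 and 772.4 in djc62, 1361, 857.2 and 1159 in djc31, and 0 in each wild-type library. AT1G23935 lies 2 loci away and had 166.6, 163 and 171.5 in the double mutant, 109.5, 94.11 and 97.04 in djc62, 122.1, 133.2 and 130.2 in djc31, and 0, 0.803 and 0 in wild type. The double mutant was highest for AT1G23935 and lowest by mean for AT1G23960.

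Another adjacent pair, AT3G47675 and AT3G47680, also differed between its members. AT3G47675, an unknown protein, had 386.2, 334.1 and 379 in the double mutant, 473, 483.3 and 412.8 in djc62, 683.6, 601.5 and 758.9 in djc31, and 0 in each wild-type library, and these mutant groups did not overlap. AT3G47680 had 508.5, 496.3 and 359.8 in the double mutant, 455.5, 607.9 and 600.7 in djc62, 391.6, 449 and 593.3 in djc31, and 0, 1.607 and 0 in wild type, and its mutant groups overlapped. In all, 7 loci of the set are annotated as unknown protein, which is 0.391% of the 1791 tested loci so named.

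The loci without a known protein included some of the best-read ones. AT3G05945, listed by RefSeq as a long non-coding RNA, had 466, 378.7 and 480.3 in the double mutant, 640.7, 443.4 and 392 in djc62, 942.4, 711.1 and 755.6 in djc31, and 0 in each wild-type library. AT3G27990, typed as other RNA with no further annotation, had 400, 380.2 and 374.9 in the double mutant, 254, 345.9 and 300.3 in djc62, 411.5, 427.5 and 453 in djc31, and 0 in each wild-type library. The djc62 libraries were the 3 lowest at AT3G27990 and the djc31 libraries the 3 highest at both loci. Of the 69 tested natural antisense genes 3 (4.35%) belonged to the set: AT1G25098, AT3G29644 and AT4G01593. The loci they overlap, AT1G25097, AT3G29642 and AT4G01595, had 0 reads in all 12 libraries. The sources used here do not give the strand setting of the count, so reads from a gene and its antisense partner cannot be told apart. Likewise AT1G24800, AT1G24996, AT3G47250 and AT5G44980 have named closest matches (AT1G25150, AT1G24822, AT3G47200 and AT5G44960) with 0 reads in all 12 libraries. Where copies are near-identical, their reads may have been given to 1 copy, so the values of these loci are uncertain.

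Loci around the set that did not themselves meet the rule were called against wild type at higher shares than loci at large. The 5 loci on each side, without members of the set and transposable element genes, came to 345, of which 200 could be tested. A locus was called where limma's test on log2(value + 1), with Benjamini-Hochberg adjustment over 19975 loci, gave an adjusted p below 0.05. In the double mutant against wild type 79 of the 200 were called (39.5%, against 29.2% of all tested loci), 58 higher and 21 lower (13.8% and 15.5% of all tested loci). In djc62 it was 86 (43.0%, against 26.7%), 61 higher and 25 lower (13.7% and 13.0%), and in djc31 96 (48.0%, against 27.5%), 63 higher and 33 lower (13.3% and 14.2%). These 3 comparisons share the wild-type libraries. Among the mutants the shares of neighbours were not above those of all loci: 36 (18.0%, against 19.7%) in the double mutant against djc62, 60 (30.0%, against 31.3%) in the double mutant against djc31 and 18 (9.0%, against 13.8%) in djc62 against djc31. Some neighbours had next to no wild-type reads themselves. Without those of a wild-type mean below 10, 61 of 173 (35.3%) were called in the double mutant, 69 (39.9%) in djc62 and 80 (46.2%) in djc31.

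The share of called loci was lower with distance from the set. For the double mutant it was 39.5% at 1 to 5 loci, 40.1% at 6 to 20, 31.4% at 21 to 100, 32.5% beyond that and up to 500, 27.3% farther away and 26.3% on chromosome 2. In djc62 it was 43.0%, 36.0%, 31.6%, 28.6%, 24.3% and 24.4% over the same classes, and in djc31 48.0%, 34.9%, 32.7%, 29.6%, 25.0% and 26.4%. Large changes common to the mutants fell off with distance too. Loci called in all 3 mutants in 1 direction with a log2 change of at least 2 in each made up 17 of 200 (8.5%) at 1 to 5 loci, 3.92%, 1.8% and 1.47% in the next classes, 50 of 10196 (0.49%) beyond 500 loci and 0.575% on chromosome 2, against 1.34% of all tested loci. This last share includes the set itself, which the rule made different from wild type, and transposable element genes. The distance classes leave out both. Large changes in a comparison among mutants showed no such order, with 3.5%, 2.43%, 3.5%, 3.47%, 3.24% and 2.81%. Neighbouring loci are not independent, so these shares are given as a description.

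**Figure D2:**
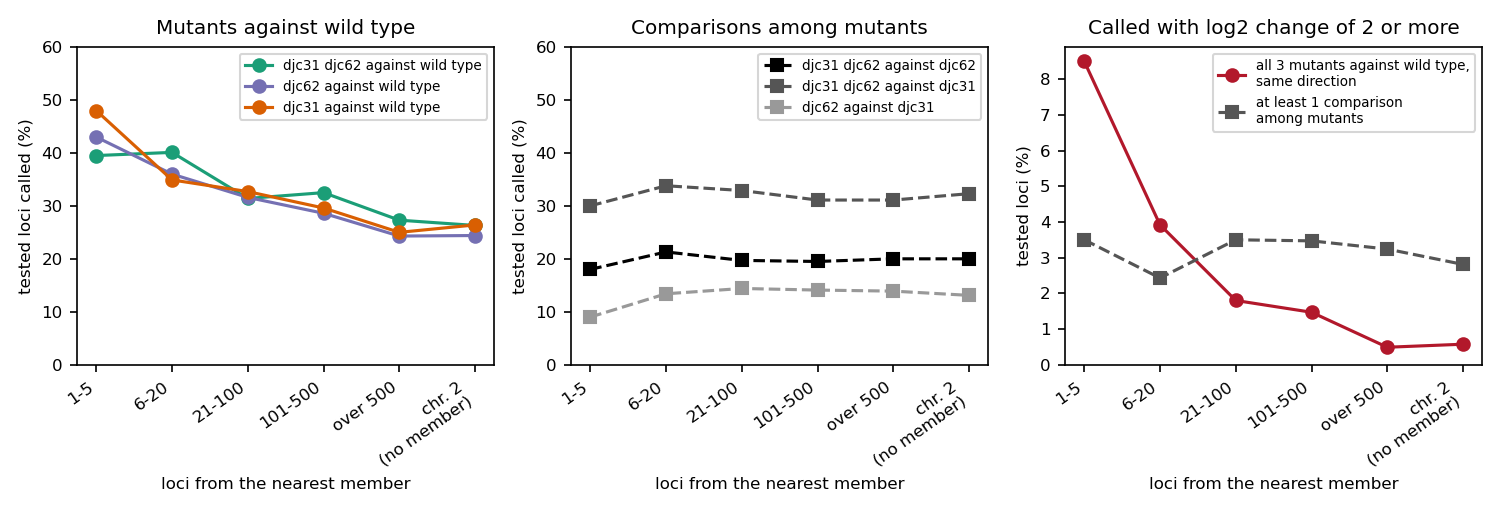
Share of tested loci called (y axis, percent) by distance from the nearest of the 47 loci, counted in loci (x axis), for each mutant against wild type (left), for the comparisons among mutants (middle) and for log2 changes of at least 2 (right). The shares against wild type are highest near the set, and the right panel is at 8.5% for 1 to 5 loci and 0.49% beyond 500 loci.

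The 5 neighbours with the lowest adjusted p in the double mutant were nearly silent in wild type as well. AT3G47290 (PLC8, annotated as a phospholipase C, an enzyme of phosphoinositide signalling) had 1025, 1072 and 1043 in the double mutant, 1337, 1418 and 1340 in djc62, 1391, 1252 and 1245 in djc31, and 1.016, 1.607 and 2.319 in wild type, with log2 changes of 8.66, 9.04 and 8.96 (SE 0.17; limma, adjusted p = 1.51e-16, 8.19e-17 and 8.72e-17). AT3G47350 (HSD2, a hydroxysteroid dehydrogenase next to HSD3) averaged 2120 ± 57.8, 3203 ± 192 and 3588 ± 419.5 in the 3 mutants in the same order, and 2.22 ± 2.33 in wild type (SD, n = 3). AT5G46490, a TIR-class receptor gene 2 loci from AT5G46510, averaged 511.6 ± 8.04, 647.8 ± 21.5 and 518.6 ± 33, and 1.33 ± 0.633 in wild type. AT1G23950, a DUF626 gene between AT1G23935 and AT1G23960, averaged 568.2 ± 46.4, 531.5 ± 21 and 529.7 ± 131.5, and 8.81 ± 4.42 in wild type. AT1G80980, next to AT1G80970, averaged 236.2 ± 24.7, 225.6 ± 12.6 and 282.9 ± 55.5, and 1.81 ± 2.48 in wild type. Their adjusted p in the double mutant were 1.51e-16 to 3.05e-09 by limma, and no mutant library of any of the 5 overlapped wild type. Since AT3G47290 and AT5G46490 stood just outside the wild-type limit, they are close to the set by the rule's own measure.

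In the part from AT3G47250 to AT3G47390 of the longer chromosome 3 stretch given above, called loci stood beside loci that were not. This part runs from a member of the set to a called locus and was not bounded by the gap rule, so its counts are a description. Of 24 loci 14 could be tested, 2 of them members of the set (AT3G47250 and AT3G47360), and 6 others were higher in all 3 mutants, while 0 were lower in all 3 (4.72% and 4.88% of all tested loci). Besides PLC8 and HSD2 these were ASN1, PHS1, AT3G47348 and AT3G47380. ASN1 (AT3G47340, an asparagine synthetase that plants turn on in the dark) had 1100, 1173 and 1629 in the double mutant, 2825, 3540 and 3298 in djc62, 4687, 3530 and 4125 in djc31, and 86.39, 79.53 and 64.93 in wild type (log2 change 4.05, 5.37 and 5.72; limma, adjusted p = 3.04e-12, 3.61e-14 and 1.32e-14). PHS1 (AT3G47390), at the end of this part, averaged 581.5 ± 30, 587.3 ± 13.8 and 578.1 ± 58.4, and 260.6 ± 31.4 in wild type. Within the part, SELT (AT3G47300) averaged 159.2 ± 12.9, 139 ± 35.2 and 151.8 ± 29.1, and 138.6 ± 7.79 in wild type, within the spread of the libraries (limma, adjusted p = 0.524, 0.938 and 0.728). The ribosomal protein gene AT3G47370, next to HSD3, averaged 3400 ± 373.3 in djc62 and 3387 ± 589.8 in djc31, against 3380 ± 477 in wild type, and was lower in the double mutant, at 2337 ± 127.6 (log2 change -0.52, adjusted p = 0.00696 by limma).

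**Figure D3:**
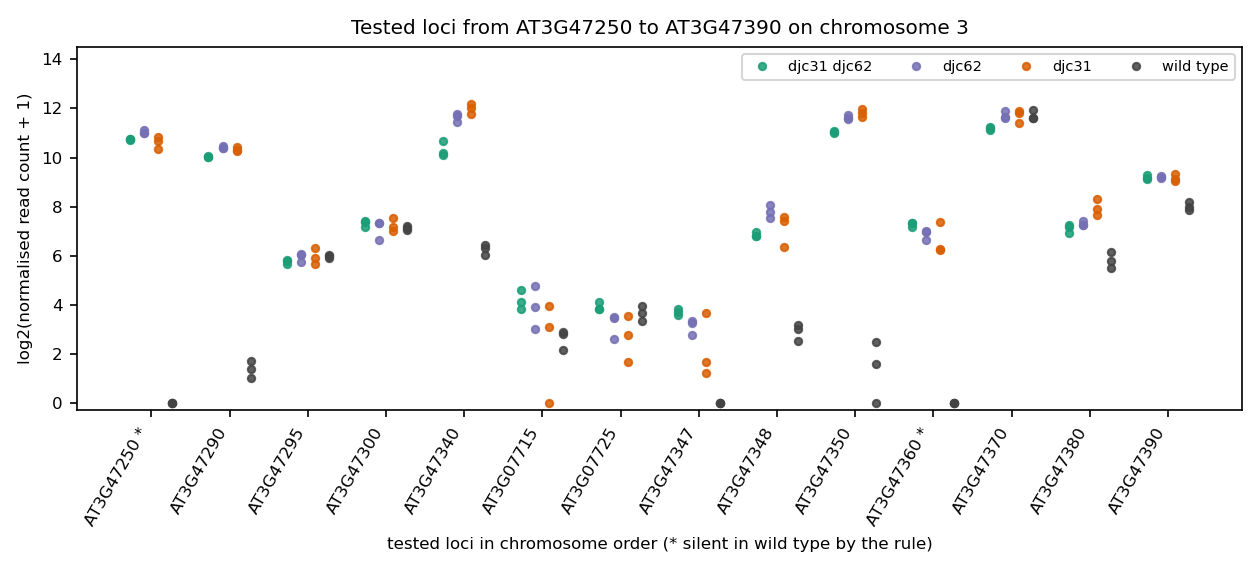
Values of the 14 tested loci from AT3G47250 to AT3G47390 in chromosome order (x axis), as log2(normalised read count + 1) (y axis), 1 point per library and colours for genotypes. Stars mark the 2 loci chosen by the rule. Loci near 0 in wild type stand beside loci, such as AT3G47300, where the points of the 4 genotypes overlap.

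Changes in both directions stood together around another locus of the set. Of the 8 tested neighbours of AT5G44572, within 5 loci on each side, 3 (AT5G44568, AT5G44569 and AT5G44580) were higher in all 3 mutants, 1 was called in some mutants and 3 in none. AT5G44575 was lower in all 3, with 21.5 ± 3.98 in the double mutant, 20.8 ± 10.5 in djc62, 15 ± 9.31 in djc31 and 109.7 ± 11.6 in wild type (log2 change -2.31, -2.45 and -3.04; limma, adjusted p = 0.00224, 0.00139 and 0.000188). Of the 8 tested neighbours of AT5G46510, the 3 nearest, AT5G46490, AT5G46500 and AT5G46520 (VICTR), were higher in each mutant, and 3 others were called in none. AT5G46470 was lower in djc31 (log2 change -0.92; limma, adjusted p = 0.00385) and AT5G46450 was higher in djc62 and djc31. VICTR had 53.8, 81.85 and 53.55 in the double mutant, 54.75, 48.33 and 46.98 in djc62, 67.69, 51.56 and 38.88 in djc31, and 18.29, 8.837 and 2.319 in wild type.

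The rule did not use differences among mutants, but it kept only loci with at least 10 in each mutant library. Loci silent or low in a mutant were thus left out of the set and not out of all tested loci. This limits what the shares below can show about the set. By limma, the share of the set that was called lay below that of all loci in each comparison among mutants. For djc62 against djc31 this turned with the fit. In the double mutant against djc31 12 of the 47 were called (25.5%, against 31.3% of all tested loci), 6 higher and 6 lower (15.3% and 16.0% of all tested loci). In the double mutant against djc62 it was 4 (8.51%, against 19.7%), 3 higher and 1 lower (9.38% and 10.4%), and in djc62 against djc31 3 (6.38%, against 13.8%), 0 higher and 3 lower (7.91% and 5.85%). Without djc31 replicate 1, 6 were called in the double mutant against djc31, and without double-mutant replicate 2, 7. The median log2 change of the set was -0.16, -0.07 and -0.15 in the 3 comparisons, against 0.03, 0.00 and 0.01 over all tested loci. In all, 15 loci were called in at least 1 of them and 32 in none. By mean, the double mutant was highest at 14 loci, djc62 at 11 and djc31 at 22. With the 9 mutant libraries alone, an alternative added after the data were seen, 14 loci were called in the double mutant against djc31 (29.8%, against 30.8% of all loci), 5 in the double mutant against djc62 (10.6%, against 18.8%) and 8 in djc62 against djc31 (17.0%, against 12.7%). In the last comparison edgeR called 9 (19.1%, against 14.0%) and DESeq2 10 (21.3%, against 18.0%), so there the set's share was above that of all loci. With a pseudocount of 4 it was 14.9%, against 14.1%, and with only the 2 genotypes fitted 6.38%, against 5.47%. With only the 2 genotypes fitted, the double mutant against djc31 also turned, at 27.7%, against 27.2%.

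Only 3 loci were called higher in the double mutant than in both single mutants. AT5G44572, an unknown protein, had 231.7, 427.1 and 313.8 in the double mutant, 61.74, 45.78 and 56.22 in djc62, 39.82, 25.78 and 62.54 in djc31, and 0 in each wild-type library. Its 3 double-mutant libraries were far above the 6 single-mutant ones (limma, adjusted p = 0.000208 with a log2 change of 2.52 ± 0.38 SE against djc62, and adjusted p = 3.8e-05 with 2.94 ± 0.38 SE against djc31). AT1G76960, also an unknown protein, had 734.1, 738.9 and 540.5 in the double mutant, 389.1, 125.5 and 244.1 in djc62, 181.8, 169.7 and 119.2 in djc31, and 0 in each wild-type library (log2 change against djc62 1.54 ± 0.33 SE with adjusted p = 0.00358, against djc31 2.1 ± 0.33 SE with adjusted p = 0.000222, limma). The F-box gene AT5G44980 had 62.48, 78.87 and 78.65 in the double mutant, 20.97, 15.26 and 13.86 in djc62, 13.27, 34.37 and 20.28 in djc31, and 1.016, 0 and 0 in wild type. At all 3 loci the double-mutant libraries did not overlap the others. For AT5G44980 the log2 change was 2.08 ± 0.51 SE against djc62 (limma, adjusted p = 0.00817) and 1.74 ± 0.51 SE against djc31 (adjusted p = 0.0156); without double-mutant replicate 2 the adjusted p against djc62 was 0.0503, and the call against djc31 was also lost without djc31 replicate 1, double-mutant replicate 2 or double-mutant replicate 3.

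**Figure D4:**
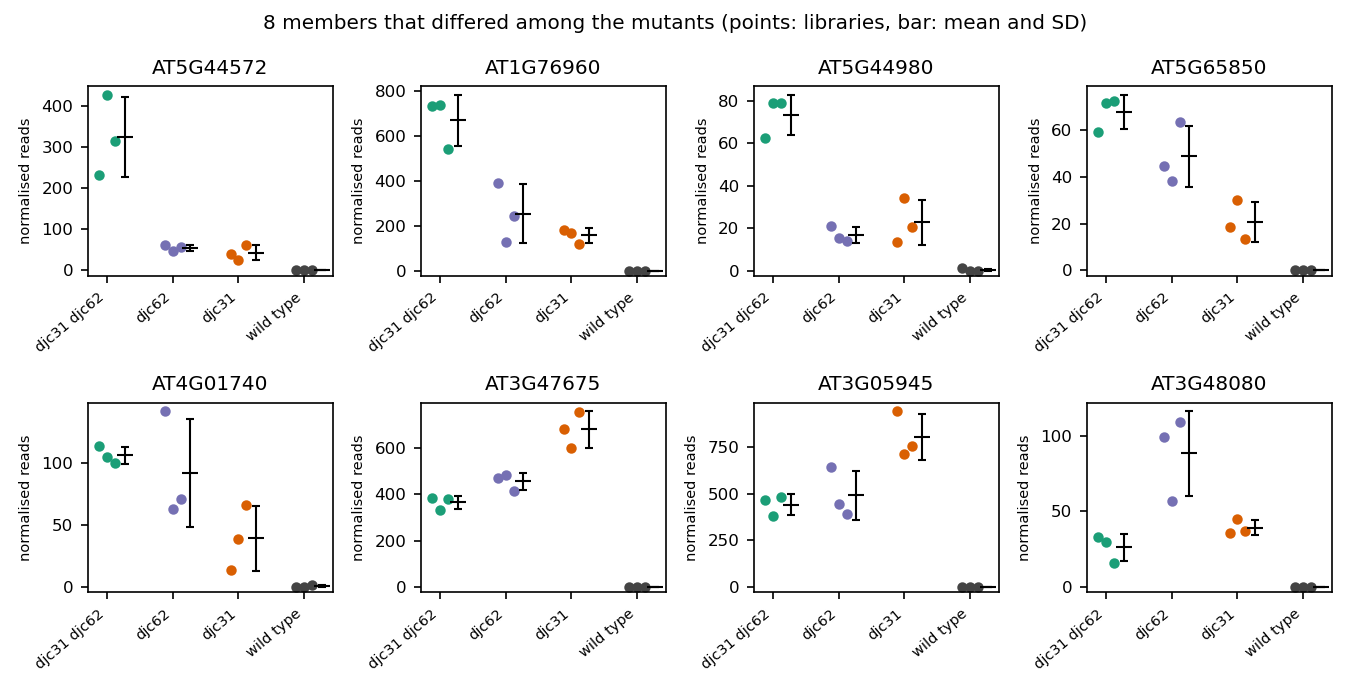
Normalised read counts (y axis) of 8 of the 47 loci that differed among mutants, by genotype (x axis), with 1 point per library and a bar for mean and SD (n = 3). AT5G44572, AT1G76960 and AT5G44980 are highest in the double mutant, and AT3G47675 and AT3G05945 are highest in djc31.

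A further 3 loci were called higher in the double mutant than in djc31 alone. The F-box gene AT5G65850 had 59.01, 71.43 and 71.96 in the double mutant, 44.27, 38.15 and 63.15 in djc62, and 18.58, 30.08 and 13.52 in djc31 (log2 change 1.72 ± 0.45 SE against djc31; limma, adjusted p = 0.00802). The C1-domain gene AT4G01740 had 113.7, 104.9 and 100.4 in the double mutant, 142.1, 62.74 and 70.85 in djc62, and 13.27, 38.67 and 65.92 in djc31 (log2 change 1.67 ± 0.52 SE; limma, adjusted p = 0.0221), and its call was lost without djc31 replicate 1 or any single double-mutant replicate. AT5G46510 (VICTL) was higher by a log2 change of 0.53 ± 0.19 SE (limma, adjusted p = 0.0467), a call lost in 11 of 22 alternatives.

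The 6 loci lower in the double mutant than in djc31 were led by AT3G46845, with 91.98, 95.99 and 87.86 in the double mutant, 156.1, 129.7 and 124.8 in djc62, and 232.3, 201.9 and 152.1 in djc31 (log2 change -1.06 ± 0.29 SE; limma, adjusted p = 0.0106). Its call was lost without djc31 replicate 1. AT1G12010, the ACC oxidase gene, had 86.78, 83.34 and 134.7 in the double mutant, 128.1, 125.5 and 137.1 in djc62, and 250.9, 161.1 and 187.6 in djc31 (-0.98 ± 0.34 SE; limma, adjusted p = 0.0339), and the call was lost without any 1 of djc31 replicates 1 and 3 and double-mutant replicates 1 and 2. AT3G47675 and AT3G05945, whose values are above, had log2 changes of -0.89 ± 0.19 SE (limma, adjusted p = 0.00255) and -0.86 ± 0.22 SE (adjusted p = 0.00691), and kept their calls under each of 22 alternatives. AT5G51620 had a log2 change of -0.66 ± 0.19 SE (limma, adjusted p = 0.0145) and AT1G23960 one of -0.54 ± 0.19 SE (adjusted p = 0.044). AT5G51620 lost its call without djc31 replicate 1 or double-mutant replicate 2, and AT1G23960 in 9 of 22 alternatives.

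Between the double mutant and djc62, AT3G48080, the neighbour of EDS1, was the only locus called lower. It had 32.98, 29.76 and 15.9 in the double mutant, 99.02, 56.81 and 109.4 in djc62, 35.84, 45.12 and 37.19 in djc31, and 0 in each wild-type library. The djc62 libraries were the 3 highest (log2 change -1.73 ± 0.45 SE; limma, adjusted p = 0.0116), and the call was lost without djc62 replicate 1 or 3 or double-mutant replicate 3. Between djc62 and djc31, the antisense locus AT1G25098 had 15.14, 35.61 and 32.35 in djc62 and 183.2, 49.41 and 213.8 in djc31 (log2 change -2.22 ± 0.70 SE; limma, adjusted p = 0.0429), and 42.52, 12.65 and 132.2 in the double mutant. AT5G43403, typed as other RNA, had 125.8, 91.57 and 104 in djc62 and 176.5, 227.7 and 191 in djc31 (-0.89 ± 0.28 SE; limma, adjusted p = 0.0437), and AT3G05945 had a log2 change of -0.73 ± 0.22 SE (adjusted p = 0.0355). These 3 calls were lost in 10, 11 and 10 of 22 alternatives, and leaving out djc31 replicate 1, djc62 replicate 2, djc62 replicate 3 or double-mutant replicate 1 left 0 calls by limma in this comparison, with 7 to 12 loci at an unadjusted p below 0.05, while edgeR called 9 and DESeq2 10 with all libraries.

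The deposited annotation names a closest protein match in Arabidopsis for 24 of the 47 loci. Of the matches, 12 had enough reads to test, and 9 of these averaged at least 100 in wild type. The other 12 averaged below 10 in every genotype, wild type included, and 8 of them below 1. Against wild type, 3 of the 12 tested matches were higher and 1 lower in the double mutant (33.3% called, against 29.2% of all tested loci), 3 higher and 2 lower in djc62 (41.7%, against 26.7%), and 2 higher and 1 lower in djc31 (25.0%, against 27.5%). The tested matches AT1G23970, EDS1, VICTR and AT5G56420 lie 2, 1, 2 and 5 loci from their members. They are thus also neighbours of the set, and these shares are not independent of those of the neighbours. AT5G21090, the match of AT3G43740, averaged 3903 ± 27.2 in the double mutant, 4324 ± 133.1 in djc62, 3453 ± 178.5 in djc31 and 3541 ± 130.6 in wild type (SD, n = 3). AT3G19515, the match of AT1G23935, averaged 643.5 ± 25.2, 635.4 ± 50.4 and 612.3 ± 85.5 in the mutants in the same order and 604.6 ± 60.1 in wild type (limma, adjusted p = 0.625, 0.718 and 0.954). EDS1 averaged 740.5 ± 37.1 in the double mutant, 682.2 ± 81.6 in djc62, 512.8 ± 69.2 in djc31 and 540.2 ± 63.6 in wild type, and the double mutant was higher (limma, adjusted p = 0.0175).

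Matches of the receptor genes moved in different directions. AT5G43730, the CC-class match of AT1G15890 on another chromosome, had 125.8, 134.7 and 116.3 in the double mutant, 102.5, 118.7 and 93.18 in djc62, 76.99, 116 and 131.8 in djc31, and 10.16, 4.017 and 1.159 in wild type (log2 change 4.68, 4.41 and 4.43; limma, adjusted p = 5.06e-07, 8.09e-07 and 6.58e-07). By its identifier, AT5G43730 lies between AT5G43403 and AT5G44063 of the set, within the chromosome 5 stretch given above. VICTR, the match of AT5G46510, was higher in each mutant as given above. AT4G16890, the match of AT5G51630, was lower in each mutant, at 3113 ± 195.7 in the double mutant, 3151 ± 180.1 in djc62 and 2214 ± 195.2 in djc31, against 3972 ± 456.9 in wild type (log2 change -0.35, -0.33 and -0.84; limma, adjusted p = 0.0227, 0.0315 and 1.52e-05).

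**Figure D5:**
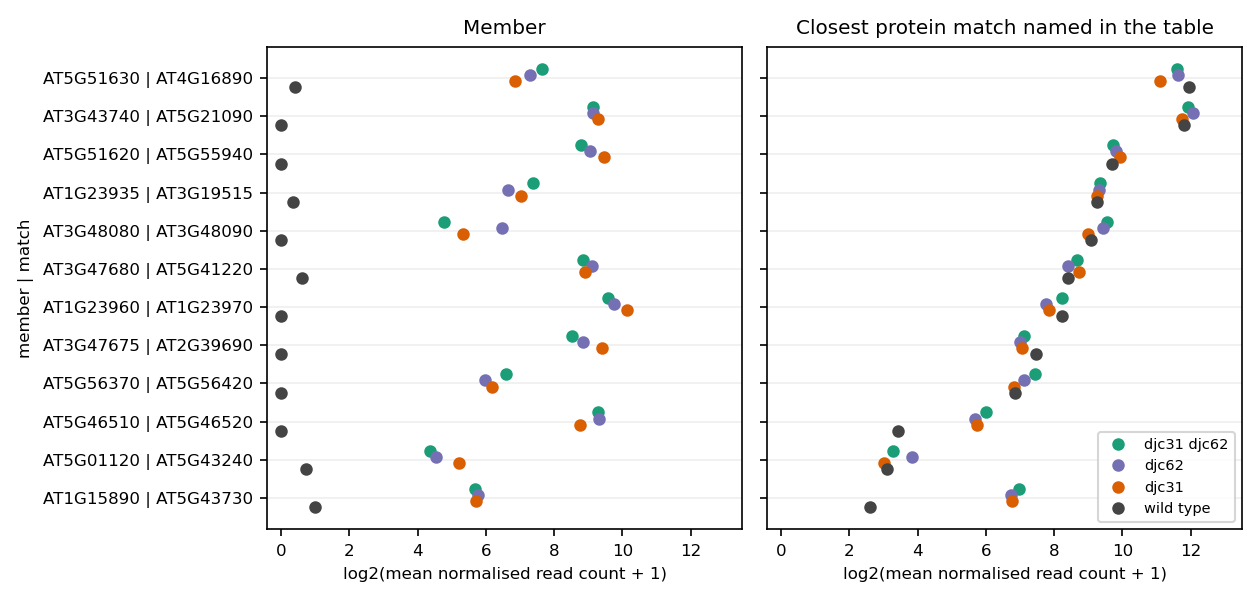
Mean normalised read count per genotype, as log2(mean + 1) (x axis), of 12 of the 47 loci (left) and of the closest protein match that the deposited annotation names for each (right), 1 row per pair. Pairs whose match had too few reads to test are not shown. Wild type lies near 0 in every left row, and in the right panel it lies close to the mutants in most rows and far below them for AT5G43730 and AT5G46520.

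Against wild type, genes that set, keep or undo silencing were called at lower shares than loci at large. Of 40 genes of DNA methylation and related silencing, 5 were called in the double mutant (4 higher, 1 lower; 12.5%, against 29.2% of all tested loci), 3 in djc62 (1 higher, 2 lower; 7.5%, against 26.7%) and 6 in djc31, each lower (15.0%, against 27.5%). Their median log2 change was 0.17 in the double mutant, -0.05 in djc62 and -0.18 in djc31. The 40 include DNA demethylases such as ROS1 and DML3, so counts by direction mix genes of opposite roles. ROS1 was among the 4 higher in the double mutant (limma, adjusted p = 0.0344), and DML3 was the 1 lower. Among the mutants, 13 of the 40 were called in the double mutant against djc31, each higher (32.5%, against 31.3% of all tested loci called and 15.3% called higher). Against djc62 the double mutant had 6 called, each higher (15.0%, against 19.7%, and 9.38% higher), and djc62 against djc31 had 4 of 40, each higher (against 13.8% of all tested loci called and 7.91% called higher). DML3, a DNA demethylase, was lower in all 3 mutants, with 228.6 ± 29.9 in the double mutant, 197.2 ± 28.5 in djc62 and 210.7 ± 50.2 in djc31, against 389 ± 70.9 in wild type (SD, n = 3; limma, adjusted p = 0.00861, 0.00144 and 0.00261). CLSY3, which helps to direct RNA polymerase IV to its targets, averaged 97.4 ± 9.7 in the double mutant, 8.03 ± 2.95 in djc62, 11.7 ± 8.05 in djc31 and 14 ± 7.45 in wild type, and the double mutant was higher (limma, adjusted p = 0.000892). NRPD1, the largest subunit of that polymerase, averaged 203.3 ± 18.4 in the double mutant, 182 ± 9.1 in djc62, 116.7 ± 24.1 in djc31 and 194 ± 8.86 in wild type, and djc31 was lower (limma, adjusted p = 0.00437). SUVH2, a protein that binds methylated DNA, was higher in the double mutant and in djc62, a call that the double mutant lost without wild-type replicate 1 or double-mutant replicate 1. MET1 and DDM1, which keep DNA methylation in place, averaged 1022 ± 30.7 and 388 ± 30.8 in the double mutant and 802.1 ± 50.7 and 346.1 ± 33 in wild type, and were not called in the double mutant, djc62 or djc31 against wild type.

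The counts of the silencing list moved with single libraries. Without djc31 replicate 1, 8 of its genes were called in the double mutant, and 3 without any 1 of the double-mutant replicates. In djc62 it was 6 without djc31 replicate 1 and 5 without djc62 replicate 1, and in djc31 it was 3 without wild-type replicate 1 and 10 without djc31 replicate 3. The list of 13 genes for polycomb repression, which keeps genes silent through histone methylation, also holds REF6 and ELF6, which counter it. In this list, SWN was lower in djc31, at 637.1 ± 59.1, against 967.1 ± 146 in wild type (SD, n = 3; limma, adjusted p = 0.00499). LHP1 was higher in djc62, at 447.5 ± 49.3, against 337 ± 19 in wild type (limma, adjusted p = 0.0295), a call lost without wild-type replicate 1 or 3 or djc62 replicate 1 or 2. Of the polycomb genes 0 were called in the double mutant by limma, edgeR or DESeq2, with 0 at an unadjusted p below 0.05.

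Markers of seed, flower and root were checked because whole plants were sampled. Of 17 seed storage and oil body genes only 2 had enough reads to test. The sums over all 17 genes were 120.5 to 169.2 in the double mutant, 31.45 to 75.46 in djc62, 45.64 to 62.3 in djc31 and 45.22 to 63.02 in wild type. The oleosin gene OLE4 averaged 123.3 ± 21.8 in the double mutant, 24.6 ± 17.1 in djc62, 33.4 ± 5.89 in djc31 and 27.6 ± 13.1 in wild type (double mutant against wild type, limma, adjusted p = 0.000869). OLE4 made up most of the double-mutant sums. The other tested gene, OLE5, was not called there, at 16.91 ± 8.99 in the double mutant and 24.52 ± 8.34 in wild type (limma, adjusted p = 0.471). CRU3, SESA2 and SESA4 were at 0 in all 12 libraries. Of 13 flower and pollen genes 4 were tested, and 1 was called in the double mutant, 3 in djc62 and 2 in djc31, each lower, where 15.5%, 13.0% and 14.2% of all tested loci were called lower. AG, the 1 called in the double mutant, reached the 10 needed for a test only in wild type (18.29, 19.28 and 13.91). SEP1, called in djc62, reached 10 among the mutants only in djc31 replicate 3 (11.83). Genes tested mainly through wild type can hardly be called higher, so these counts are a description. The sums over all 13 genes were 77.38 to 97.9 in the double mutant, 24.59 to 29.26 in djc62, 18.58 to 66.77 in djc31 and 112.5 to 155.9 in wild type. MS1, VGD1 and PPME1 of that list were at 0 in all 12 libraries. Of 12 root genes 6 were tested. The sums over all 12 genes were 5208 to 5843 in the double mutant, 3460 to 3771 in djc62, 2452 to 3268 in djc31 and 2608 to 2793 in wild type. The double mutant had 3 root genes called, each higher, in djc62 2, each higher, and in djc31 2 higher and 1 lower, beside 29.2%, 26.7% and 27.5% of all tested loci called in the double mutant, djc62 and djc31. PYK10, a root beta-glucosidase, averaged 4293 ± 333.2 in the double mutant, 2423 ± 189.2 in djc62, 1911 ± 290.2 in djc31 and 1422 ± 154 in wild type, and PLT1 was at 0 in every library. PYK10 made up most of the double-mutant sums. NRT2.1, also called higher in each mutant, averaged only 8.347 in the double mutant, 18.46 in djc62, 32.35 in djc31 and 1.071 in wild type. Its double-mutant call was lost in 7 of 21 alternatives. WOX5, also called higher in the double mutant, averaged 75.07 ± 10.5 there and 9.056 ± 2.585 in wild type (limma, adjusted p = 0.00781). SCR went the other way in djc31, at 530 ± 49.71, against 912.1 ± 162.2 in wild type (limma, adjusted p = 0.00026). SCR was not called in the double mutant (808.4) or djc62 (900.2), and SHR and CASP2 were called in no mutant against wild type. None of these lists holds a locus of the set, and the part of these tissues in the differences among mutants was not tested.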

How the data were processed

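The deposited table holds 1 normalised read count per locus and library (unit signal). Its sheet is named for DESeq2, per the file headers, and the values are whole reads times 1 factor per library: reads were recovered within 0.01 for 100% of values. Per the submitters' processing notes, Trimmomatic, FastQC and featureCounts were used with TAIR10. The aligner and tool versions are not stated there. Per the labels, RNA came from whole plants with 3 libraries per genotype. The labels do not say that replicates were grown separately, so the p-values cover only the variation from library to library, possibly technical.

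The 47 loci, the gene lists and the tests were chosen with earlier results of these data known. limma 3.58.1 (R 4.3.3), with its trend option, was fitted to log2(value + 1) of 19975 loci with at least 10 in at least 3 libraries (16942 removed), 1 mean per genotype, 8 residual degrees of freedom, and Benjamini-Hochberg adjustment at 0.05. The added 1 makes the log2 changes of low loci too small. edgeR 4.0.16 and DESeq2 1.42.0 on the recovered reads, other pseudocounts and filters, 2 genotypes at a time and leaving out each library were alternatives. Over all loci, limma called 5839, 5326 and 5489 in the double mutant, djc62 and djc31 against wild type, and edgeR 6006, 5498 and 5423. Programs were tested on simulated data.

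The median depth was 25.79 M reads; bounds cover counting error only. Values per library were given for the 10 loci with the highest mutant mean, those that differed most among the mutants and adjacent members, for up to 5 neighbours with the lowest adjusted p and up to 4 genes per list. Other named loci were chosen after their values were seen. A blastp search and promoter motifs were planned and not run, since no sequences were used here, and closest matches are those the deposited annotation names. Replicate numbers were not taken to pair samples.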

Additional observations from a re-analysis of the deposited data

How the results depend on the processing

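Calls rest on 3 libraries per group, and differences among mutants at low read counts are limited by counting error. Of the 47 loci, 31 had no wild-type read, 25 had at least 50 in each mutant library, and leaving out 1 library at a time gave 45 to 48 loci. In djc62 against djc31 (3 called), pseudocount 0.25 gave 0 (9 at an unadjusted p below 0.05), pseudocount 4 gave 7, no filter gave 0 (12 unadjusted), edgeR 9, DESeq2 10, the 9 mutant libraries alone, added after the data were seen, 8, and leaving out 1 library 0 to 7. In the double mutant against djc31 (12 called), pseudocount 0.25 gave 7 and leaving out 1 library 6 to 13, and against djc62 (4 called) a fit of only the 2 genotypes gave 10 and leaving out 1 library 3 to 5. With 2 neighbours on each side, 42, 41 and 43 of 85 were called in the double mutant, djc62 and djc31 against wild type, and leaving out 1 library gave 57 to 89, 71 to 94 and 83 to 96 of 200. Without the neighbours of chromosome 3 loci, added after the data were seen, 57, 59 and 67 of 137 were called. In the silencing list, edgeR, DESeq2 and the fit of only the 2 genotypes gave 8 each for the double mutant (5 called) and DESeq2 8 for djc62 (3 called), and leaving out 1 library gave 3 to 8, 2 to 6 and 3 to 10 in the double mutant, djc62 and djc31. Beyond these the cause of a moved count was not tested. For single named loci, 1318 values under an alternative kept their side of the threshold, 117 lost it and 0 changed direction.

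Same-numbered libraries did not deviate together (correlations -0.151 to 0.106), so the numbers were not taken to pair the samples. The labels do not say whether same-numbered libraries were grown together, and this check cannot settle it. With the replicate number as a block, 11 of the 47 loci were called in the double mutant against djc31, 4 in the double mutant against djc62 and 2 in djc62 against djc31, 75, 82 and 93 neighbours were called in the double mutant, djc62 and djc31 against wild type, and 5, 2 and 7 genes of the silencing list.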
